A study of Mus musculus with 6 samples.

Results

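NF-kB is a family of dimeric transcription factors built from Rel-domain subunits, and 10 of its genes are described here in mouse 3T3 cells: 4 subunit genes (Nfkb1, Nfkb2, Rela and Relb), 4 genes for inhibitors and feedback regulators (Nfkbia, Nfkbiz, Tnfaip3 and Birc3) and 2 target genes for adhesion molecules (Vcam1 and Icam1). They were picked by name for their place in the pathway from the 54532 genes listed in the files, with earlier results of these data known. All 10 were found, and all 10 passed the filter of at least 10 reads summed over the 6 libraries. Poly(A)+ RNA was sequenced from Flp-In 3T3 mouse fibroblasts, an established line with a recombination site for inserting transgenes, in a control group (3 libraries) and in a group with joint knockdown of Safb1, Safb2 and Sltm by siRNA, called triple KD in the labels and SAFB KD here (3 libraries). Cells were transfected repeatedly with the siRNAs and harvested on the third day, and the groups share the line. For 3T3 cells the study's methods do not name the control siRNA or say whether the total siRNA dose was matched. No NF-kB stimulus is named for either group, and both went through transfection.

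In resting cells, dimers of these subunits are held in the cytoplasm by inhibitors of the IkB family. Signals from TNF, interleukin-1 or Toll-like receptors activate IkB kinases, the inhibitor is destroyed, and the released dimer enters the nucleus and binds kB sites in promoters and enhancers. Several of its targets encode its own inhibitors, which ends the response, and in fibroblasts other targets encode cytokines, chemokines and surface proteins that hold leukocytes.

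Libraries held between 33323307 and 53441129 counts. The knockdown targets were lower in every SAFB KD library than in every control library, by 1.01 (Safb), 0.64 (Safb2) and 0.70 (Sltm) in size on the log2 scale, so that RNA of all 3 remained. Of 10 fibroblast markers, none averaged under 1 CPM (counts of a gene per 1000000 reads of the TMM-scaled library), and Col1a2 averaged 5056 in control and 3879 in SAFB KD. Of the leukocyte markers, Ptprc, Adgre1, Cd3e and Tyrobp had fewer than 10 reads over all libraries, whereas Cd14, Csf1r and Cd68 averaged 16.2, 4.32 and 3.82 CPM in control. Of the endothelial markers, Kdr, Tie1, Emcn and Sele had fewer than 10 reads, whereas Cdh5 averaged 7.19 CPM in control and Pecam1 0.862. Control 3 stood apart from control 1 and control 2 on the second principal component of log2 CPM (-44.2 against 23.1 and 26.5). The tests of the members were therefore also run without it. The call of Relb was then lost (edgeR adjusted p = 0.0502) and Icam1 was filtered out, while the other members kept their side of the threshold.

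In SAFB KD, 4 of the 10 genes were higher (Rela, Nfkbiz, Tnfaip3 and Vcam1), 4 were lower (Nfkb1, Relb, Nfkbia and Birc3) and 2 were not called (Nfkb2 and Icam1). The threshold was an adjusted p of 0.05 in the edgeR quasi-likelihood test over all genes. Of all 19452 genes tested, 41.5% were called, 21.4% higher and 20.1% lower. The members are set beside these shares without a test. These shares depend on how many low-count genes are kept. With a stricter low-count filter (filterByExpr), 3941 genes were higher and 4003 lower of 14776 tested, and again 4 members were higher and 4 lower. The median size of a change over the 10 genes was 0.30 on the log2 scale, beside 0.273 over all genes tested. Without Icam1, which had few reads, the median was 0.21, but the median of all genes still includes other genes with few reads. For the same 8 genes the groups did not overlap, 4 higher and 4 lower, and over all genes tested groups did not overlap in that way for 25.3% (higher) and 23.7% (lower). Tnfaip3 alone changed by more than 2-fold (edgeR glmTreat against a log2 threshold of 1), a call made for 1.22% of genes in either direction and for 0.699% in the higher direction.

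**Figure D1:**
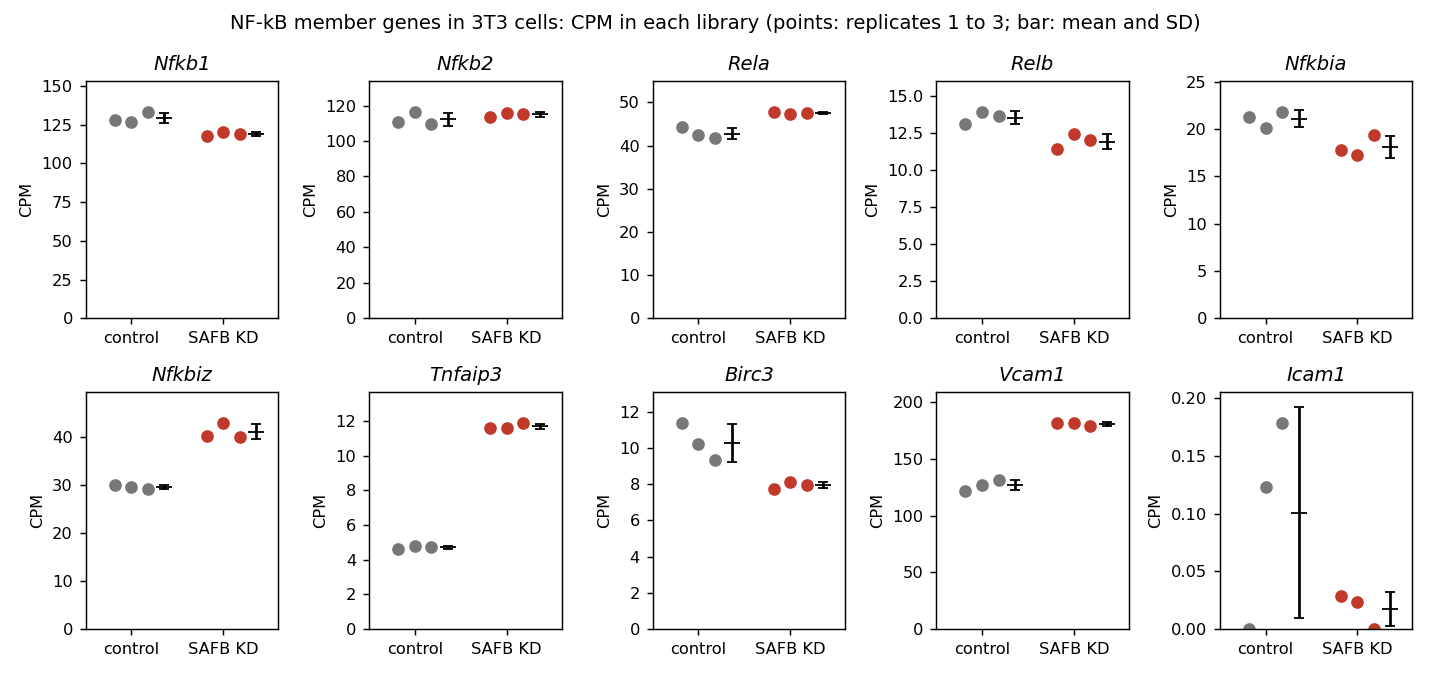
CPM of each of the 10 genes (y axis, from 0) in 3 control libraries (grey points) and 3 SAFB KD libraries (red points), with the mean and SD of each group as a black bar. Tnfaip3 lies between 4.61 and 4.78 CPM in control and between 11.6 and 11.9 in SAFB KD, while Nfkb2 overlaps between groups and Icam1 stays under 0.2 CPM in all libraries.

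The sequences at which the family acts are short, and promoter windows of the 10 genes were searched for them. RefSeq windows (GRCm38.p6, from 250 bases before to 50 bases after an annotated start of transcription) were found for 6 genes, Nfkb2, Rela, Nfkbia, Tnfaip3, Birc3 and Icam1, in 9 windows; Nfkb1, Relb, Nfkbiz and Vcam1 had no entry. The kappa-B consensus was GGG-R-N-N-Y-Y-C-C, where R is A or G, Y is C or T and N is any base. It was searched on both strands, with overlapping matches merged into 1 site. Only exact matches were counted, so close variants are not marked and a window without a match may still hold such variants. The consensus was held by 8.46% of all 32851 windows and by at least 1 window of 9.55% of genes. It was held by 3 of the 6 genes, Nfkb2, Nfkbia and Tnfaip3. The 250 bases before their starts are shown 5′ to 3′ on the strand of the gene, with kappa-B matches in capitals. The windows are chr19:46304487-46304736 (plus strand) for Nfkb2, chr12:55492648-55492897 (minus strand) for Nfkbia and chr10:19015411-19015660 (minus strand) for Tnfaip3.
Nfkb2: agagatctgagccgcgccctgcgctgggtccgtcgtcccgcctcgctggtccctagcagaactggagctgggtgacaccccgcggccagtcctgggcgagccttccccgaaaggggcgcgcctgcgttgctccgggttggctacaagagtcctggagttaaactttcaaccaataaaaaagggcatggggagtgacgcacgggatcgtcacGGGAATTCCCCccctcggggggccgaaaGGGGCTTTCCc
Nfkbia: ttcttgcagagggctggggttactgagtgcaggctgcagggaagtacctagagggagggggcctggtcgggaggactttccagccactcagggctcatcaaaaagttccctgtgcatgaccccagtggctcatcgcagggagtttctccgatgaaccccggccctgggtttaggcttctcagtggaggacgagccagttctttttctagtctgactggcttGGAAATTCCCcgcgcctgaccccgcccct
Tnfaip3: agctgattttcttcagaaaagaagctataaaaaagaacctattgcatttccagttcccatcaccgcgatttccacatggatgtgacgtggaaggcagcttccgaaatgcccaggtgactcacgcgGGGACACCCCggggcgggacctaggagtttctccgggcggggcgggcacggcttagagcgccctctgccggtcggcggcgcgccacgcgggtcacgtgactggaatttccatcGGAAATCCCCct

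Nfkb2 held 2 sites close to this start, at bases -39 to -29 and -11 to -2. Its other 2 windows overlap each other and held 2 and 1, and the 1 match of the last is the same stretch as a match of the window before it. Nfkbia held 1 site, at -29 to -20. Tnfaip3 held 2, at -125 to -116 and -12 to -3, and 0.521% of all windows held 2 or more. Its other window, farther inside the gene, held none. The stretch printed for Nfkb2, and that for Tnfaip3 but for its first 3 bases, lie within the gene as GENCODE M21 annotates it, because RefSeq and GENCODE place the start differently. The AP-1 motif TGANTCA, present in 7.81% of all windows, was found in the window of Tnfaip3 at -136 to -130, beside the first kappa-B site, and in 1 window of Nfkb2. TATAAA, present in 13.6% of all windows, was found in those of Tnfaip3, Nfkbia and Icam1. A match is a stretch of letters and not a measured binding site. Of the 3 genes with kappa-B matches, Tnfaip3 was higher in SAFB KD, Nfkbia lower and Nfkb2 not called. Whether the matches bear on these changes was not tested.

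**Figure D2:**
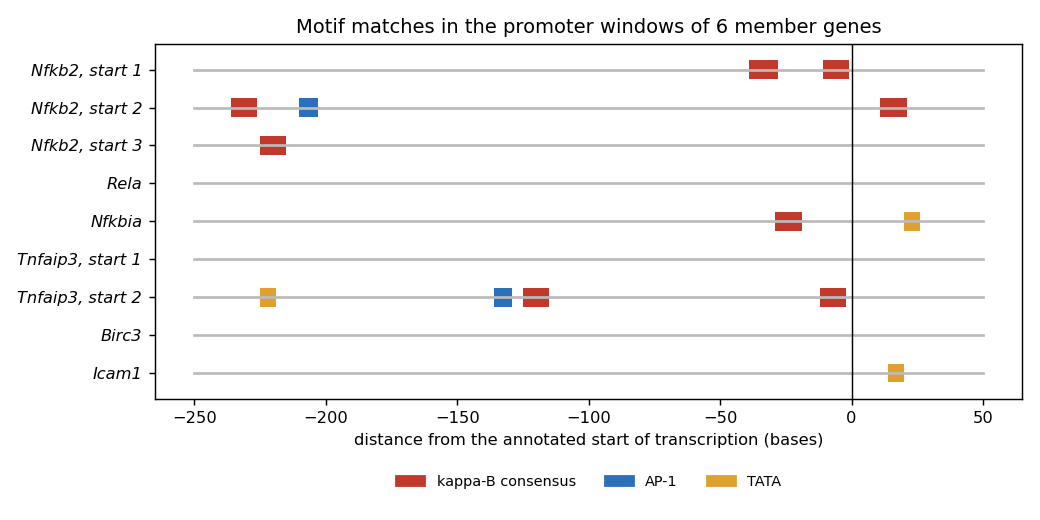
Positions of kappa-B (red), AP-1 (blue) and TATA (orange) matches in 9 promoter windows of 6 genes, with distance from the annotated start in bases on the x axis and 1 window per line. Nfkb2 has kappa-B matches at all 3 starts, Tnfaip3 2 matches at the start nearer the 5′ end of the gene, and Rela, Birc3 and Icam1 none.

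Among the subunits, Rela rose slightly, Nfkb1 and Relb fell slightly and Nfkb2 was level within its error. Rela encodes p65, the subunit with the activating domain in the common dimer (chromosome 19, 5637483 to 5648130, plus strand, GRCm38). It stood at 44.3, 42.5 and 41.7 CPM in control 1 to 3 and at 47.8, 47.4 and 47.6 in SAFB KD 1 to 3. The 3 SAFB KD libraries lay close together and above every control. The difference was 11.1% (log2 fold change 0.15, SE 0.044, edgeR adjusted p = 0.00415).

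Nfkb1 encodes p105, which is processed to p50, the usual partner of p65 (chromosome 3, 135584655 to 135691547, minus strand). Its controls were at 128, 127 and 133 CPM and SAFB KD libraries at 118, 120 and 119. All SAFB KD values were below all controls, by a gap of 6.44 CPM between the nearest libraries. It fell by 8.02% (log2 fold change -0.12, SE 0.033, edgeR adjusted p = 0.00248). The only gene annotated inside it on the same strand, Gm43430, shares no exonic base with it and had 6 to 16 reads per library.

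Nfkb2 encodes p100, the precursor of p52 and itself an IkB-like inhibitor, which serves the pathway that runs through NF-kB-inducing kinase (chromosome 19, 46304320 to 46312385, plus strand). It was at 111.0, 116.4 and 109.4 CPM in control and at 113.7, 116.1 and 115.1 in SAFB KD. Values of the groups overlapped, and control 2 was above all SAFB KD libraries. The log2 fold change was 0.03 with a 95% interval from -0.03 to 0.10 (edgeR adjusted p = 0.457), so that a change of more than 1.07-fold lay outside the interval. On the opposite strand Psd overlaps 299 of its exonic bases and a bidirectional promoter lncRNA, not analysed here, overlaps 531, and counting by strand would keep their reads apart.

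Relb encodes the partner of p52 (chromosome 7, 19606217 to 19629438, minus strand). It was at 13.1, 13.9 and 13.6 CPM in control and at 11.4, 12.4 and 12.0 in SAFB KD, without overlap but with a gap of only 0.677 CPM. It fell by 11.6% (log2 fold change -0.18, SE 0.071, edgeR adjusted p = 0.0417). This call was lost in 6 of 12 alternatives: with DESeq2 (adjusted p = 0.0671), with every gene of at least 1 read kept (0.0779), and without control 2 (0.112), control 3 (0.0502), SAFB KD 1 (0.126) or SAFB KD 3 (0.0792). The direction was lower in all 12.

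Nfkb1 and Rela moved in opposite directions, in all 12 alternatives each, and with median-ratio size factors in place of TMM their log2 fold changes were -0.13 and 0.14. The remaining subunit gene, Rel, for c-Rel, was at 21.1 to 21.9 CPM in control and 21.9 to 22.7 in SAFB KD (log2 fold change 0.05, edgeR adjusted p = 0.583), and is named here after its values were seen.

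The inhibitors and feedback regulators held the largest change among the called members and moved in both directions. Tnfaip3 encodes A20, a ubiquitin-editing enzyme that shuts off signalling from TNF and Toll-like receptors (chromosome 10, 19000910 to 19015657, minus strand). It had 200, 194 and 159 reads in control 1 to 3 and 409, 500 and 622 in SAFB KD 1 to 3, or 4.61, 4.78 and 4.73 CPM against 11.6, 11.6 and 11.9. Replicates within a group differed by little (coefficient of variation 1.84% in control and 1.22% in SAFB KD), and the gap between groups was 6.83 CPM. It rose 2.49-fold (95% interval 2.20 to 2.82, log2 fold change 1.31, SE 0.089, edgeR adjusted p = 1.22e-15).

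That Tnfaip3 rose held in all 12 alternatives, with log2 fold changes from 1.29 to 1.32. A change beyond 2-fold was a weaker statement (glmTreat adjusted p = 0.0115, and from 0.0109 to 0.53 over the alternatives). It was lost with DESeq2 (0.53) and limma-voom (0.157) and without control 1 (0.0656) or SAFB KD 3 (0.0601).

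Nfkbiz encodes IkB-zeta, a nuclear IkB protein that acts as a co-regulator at a subset of NF-kB targets such as Il6 (chromosome 16, 55811375 to 55838899, minus strand). Its level was 30, 29.5 and 29.2 CPM in control and 40.2, 42.9 and 40.0 in SAFB KD. The lowest SAFB KD library was 9.95 CPM above the highest control. It rose 1.39-fold (log2 fold change 0.47, SE 0.049, edgeR adjusted p = 1.30e-10).

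Nfkbia encodes IkB-alpha, the inhibitor that is destroyed and resynthesized in each round of canonical activation (chromosome 12, 55489410 to 55492647, minus strand). It was at 21.3, 20.1 and 21.8 CPM in control and at 17.8, 17.2 and 19.4 in SAFB KD. Groups did not overlap, but SAFB KD 3 came within 0.678 CPM of the lowest control. It fell by 13.6% (log2 fold change -0.21, SE 0.062, edgeR adjusted p = 0.00529).

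Birc3 encodes cIAP2, a ubiquitin ligase of TNF receptor complexes (chromosome 9, 7848699 to 7873186, minus strand). Its controls were more spread than those of other members with more than a few reads, at 11.4, 10.2 and 9.32 CPM (coefficient of variation 10.1%), and SAFB KD libraries were at 7.76, 8.10 and 7.97. Even so, each SAFB KD library was below each control. It fell by 23.3% (log2 fold change -0.38, SE 0.086, edgeR adjusted p = 0.000303), with log2 fold changes from -0.46 to -0.31 over the alternatives. Birc2, the closely related gene for cIAP1, was at 33.1 to 39.2 CPM in control and at 35.4 to 36.5 in SAFB KD (log2 fold change -0.01, edgeR adjusted p = 0.893). It is named here after its values were seen, and reads that fit both genes equally well would be in neither count.

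Tnfaip3 and Nfkbia, both textbook feedback inhibitors, changed in opposite directions. Each kept its direction and its call in all 12 alternatives.

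**Figure D3:**
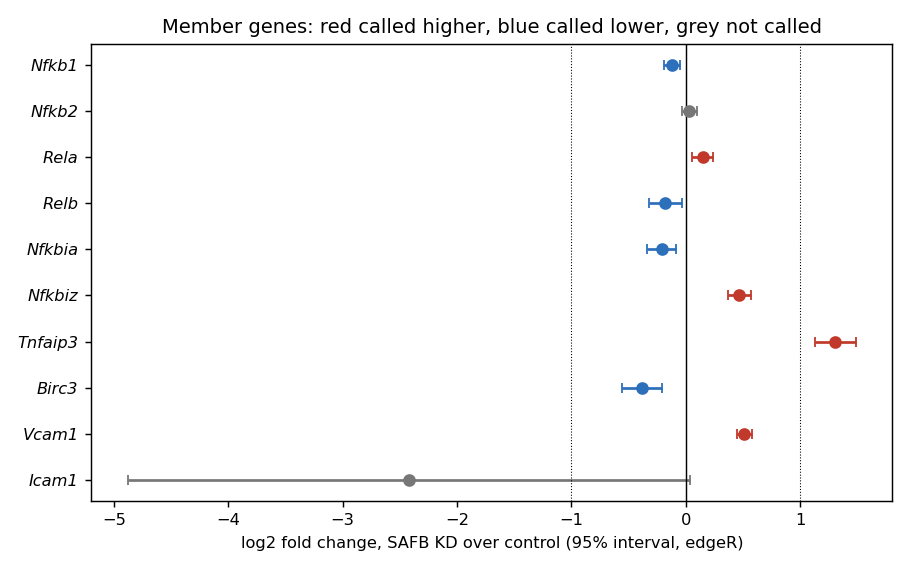
Change in SAFB KD relative to control on the log2 scale (x axis) of the 10 genes with 95% intervals from edgeR, 1 gene per line, and dotted lines at a change of 2-fold. Tnfaip3 (1.31) has an interval wholly beyond the dotted line, 7 other called genes lie between -0.38 and 0.51, and the interval of Icam1 runs from -4.88 to 0.04.

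Of the adhesion genes, Vcam1 was abundant and rose, whereas Icam1 was close to absent. Vcam1 encodes a cell surface protein of the immunoglobulin superfamily that binds the integrin made of Itga4 and Itgb1 on leukocytes (chromosome 3, 116109949 to 116129688, minus strand). It had 122, 127 and 131 CPM in control and 182, 182 and 179 in SAFB KD. No SAFB KD library came within 47.9 CPM of a control. It rose 1.43-fold (95% interval 1.36 to 1.49, log2 fold change 0.51, SE 0.032, edgeR adjusted p = 1.72e-16), the smallest adjusted p among the 10 genes. Gm43109, an antisense gene sharing 61 exonic bases, had 9 to 24 reads per library on the other strand.

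Icam1 encodes the ligand of leukocyte integrins that contain Itgb2 (chromosome 9, 21015985 to 21028817, plus strand). It had 0, 5 and 6 reads in control 1 to 3 and 1, 1 and 0 in SAFB KD 1 to 3, or 11 against 2 reads in all. This is near the floor of 3 reads per library, which is 0.0572 to 0.0893 CPM. The ratio of summed reads, SAFB KD over control, was 0.164, with an exact interval of 0.0176 to 0.749 that covers counting error only. Between libraries the spread was wider, and edgeR did not call the gene (adjusted p = 0.112). Without control 1, which had no read, it was called (adjusted p = 0.0295), so that a difference in Icam1 was not established at this depth. An antisense gene, Gm47079, covers 511 of its exonic bases and had 2 to 13 reads per library on the other strand.

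Vcam1 had the smallest adjusted p, and its pattern over the 6 libraries was compared with that of 12008 other genes that averaged 1 CPM or more. By Pearson correlation of log2 CPM, Eif2b3 (0.9992), Ehbp1l1 (0.9992) and Lrrfip1 (0.9991) were closest, with log2 fold changes of 0.46, 0.43 and 0.49. In all, 294 genes had a correlation above 0.99. The points share the difference between groups, so the measure mostly ranks genes that rose and varied little within groups.

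Compared per kilobase of merged exons, the members covered a wide range of levels. In control the order was Nfkb2 (24.5 ± 0.797 CPM per kilobase, SD, n = 3), Vcam1 (14.3 ± 0.515), Rela (13.9 ± 0.433), Nfkbia (13.1 ± 0.547), Nfkb1 (10.7 ± 0.276), Nfkbiz (5.89 ± 0.0841), Relb (3.49 ± 0.113), Birc3 (2.06 ± 0.209), Tnfaip3 (0.651 ± 0.012) and Icam1 (0.0231 ± 0.021). Vcam1 and Rela were the only neighbours whose library ranges overlapped. In SAFB KD Vcam1 stood at 20.4 ± 0.189, apart from Rela at 15.5 ± 0.0665. Tnfaip3, at 1.62 ± 0.0197, had drawn level with Birc3 at 1.59 ± 0.0341, with overlapping ranges.

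The place of Nfkb1 and Vcam1 in this order depends on the length used, since their merged exons (12061 and 8870 bases) are far longer than their longest transcripts (4149 and 4088 bases). Per kilobase of longest transcript, Nfkb1 (31.2), Vcam1 (31.0) and Nfkb2 (29.2) led in control with overlapping ranges from Nfkb1 to Vcam1 and from Vcam1 to Nfkb2, and Vcam1 (44.3) led in SAFB KD. Tnfaip3 (1.89) then remained below Birc3 (2.73) in SAFB KD. In either measure the A20 gene was the lowest member but Icam1 in control.

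**Figure D4:**
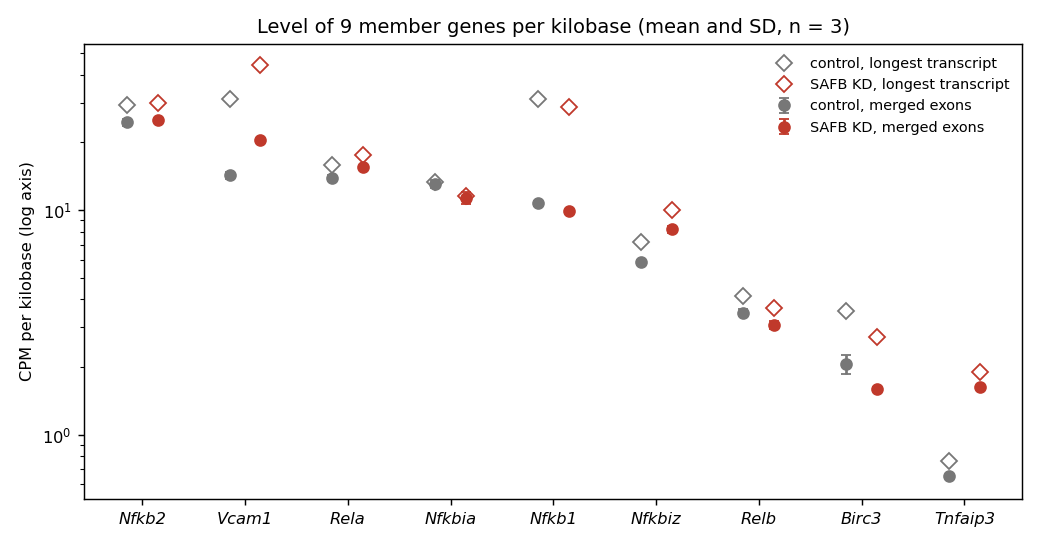
Mean level of 9 genes in CPM per kilobase (y axis, log scale) in control (grey) and SAFB KD (red), with filled points and SD bars for merged exons and open diamonds for the longest transcript; Icam1, near 0, is left out. In SAFB KD the merged-exon level of Tnfaip3 (1.62) reaches that of Birc3 (1.59), and Nfkb1 and Vcam1 differ most between the lengths.

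The wider pathway was described with 117 further genes in 9 role groups, of which 104 were tested. Of these, 36 were higher and 20 lower (34.6% and 19.2%, beside 21.4% and 20.1% of all genes tested), with a median log2 fold change of 0.07, beside 0.01 over all genes tested. The shares over all genes depend on the low-count genes kept. With filterByExpr, 3941 genes were higher and 4003 lower of 14776 tested, and again 36 pathway genes were higher and 20 lower. Among the ligands, Tnf had 6 reads over all libraries and Il1b none, both named after their values were seen, and 6 of 12 ligand genes had fewer than 10 reads. Il33, an alarmin of the interleukin-1 family, rose 1.70-fold, from 10.7 ± 1.44 to 18.5 ± 0.843 CPM (SD, n = 3). Lta, which encodes lymphotoxin alpha, fell at a very low level, from 21, 25 and 19 reads to 3, 2 and 2 (log2 fold change -3.29, SE 0.565, edgeR adjusted p = 5.99e-06).

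Of 13 receptor genes 11 were tested, of which 2 rose and 4 fell (18.2% and 36.4%, beside 21.4% and 20.1% of all genes tested). Il1r1, the signalling receptor for interleukin-1, fell from 135 ± 4.1 to 94.3 ± 1.84 CPM (log2 fold change -0.51), and Il1rl1, which encodes the receptor for interleukin-33, rose from 1504 ± 43.7 to 1899 ± 10.6 CPM (0.34). Of 20 adaptor and ubiquitin ligase genes 40.0% were called, near the 41.5% of all genes. Of these, 5 rose, among them Rnf31 (0.37) of the linear ubiquitin ligase, and 3 fell, among them the Toll-like receptor adaptor gene Ticam1 (-0.54). Of 12 genes of kinases and their partners, 4 rose, including Tank (0.21), and 3 fell, including Map3k14 (-0.46), which encodes NF-kB-inducing kinase. Together 58.3% of these 12 were called, beside 41.5% of all genes tested (21.4% higher and 20.1% lower).

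Of 7 other subunit and inhibitor genes 1 was called (14.3%, beside 41.5% of all genes tested). This was Nkiras1 (log2 fold change 0.43), for a Ras-like protein that binds IkB. Nfkbib, for IkB-beta, was at 10.8 ± 0.584 and 12.0 ± 0.764 CPM (edgeR adjusted p = 0.103). Of 12 negative regulators 5 rose and 4 fell (41.7% and 33.3%, beside 21.4% and 20.1% of all genes tested). Rnf11 and Itch, whose products work in a complex with A20, moved apart, Rnf11 from 283 ± 1.97 to 407 ± 6.00 CPM (log2 fold change 0.53) and Itch from 137.6 ± 0.548 to 107.5 ± 1.79 (-0.36).

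Cytokine and chemokine targets rose in the greatest share among the role groups. Of 11 tested, 8 rose and 1 fell (72.7% and 9.09%, beside 21.4% and 20.1% of all genes tested), with a median log2 fold change of 0.58. Lif, a cytokine of the interleukin-6 family, went from 45.3 ± 0.827 to 89.6 ± 5.67 CPM (0.98, SE 0.042, edgeR adjusted p = 8.35e-22), and the chemokine gene Cxcl1 from 26.1 ± 2.14 to 38.8 ± 0.884 (0.58). Among 14 tested survival and enzyme targets, 7 rose and 3 fell. Together 71.4% were called, beside 41.5% of all genes tested (21.4% higher and 20.1% lower). Ptgs2, which encodes cyclooxygenase-2, rose 1.98-fold from 1026.5 ± 10.7 to 2035 ± 38.2 CPM, and Ier3, an early response gene, 1.97-fold. C3, a complement gene, moved the other way and fell from 14.5 to 4.59 CPM, and is named after its values were seen. These lists were drawn up with earlier results of these data known, and several of their genes also belong to other pathways.

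**Figure D5:**
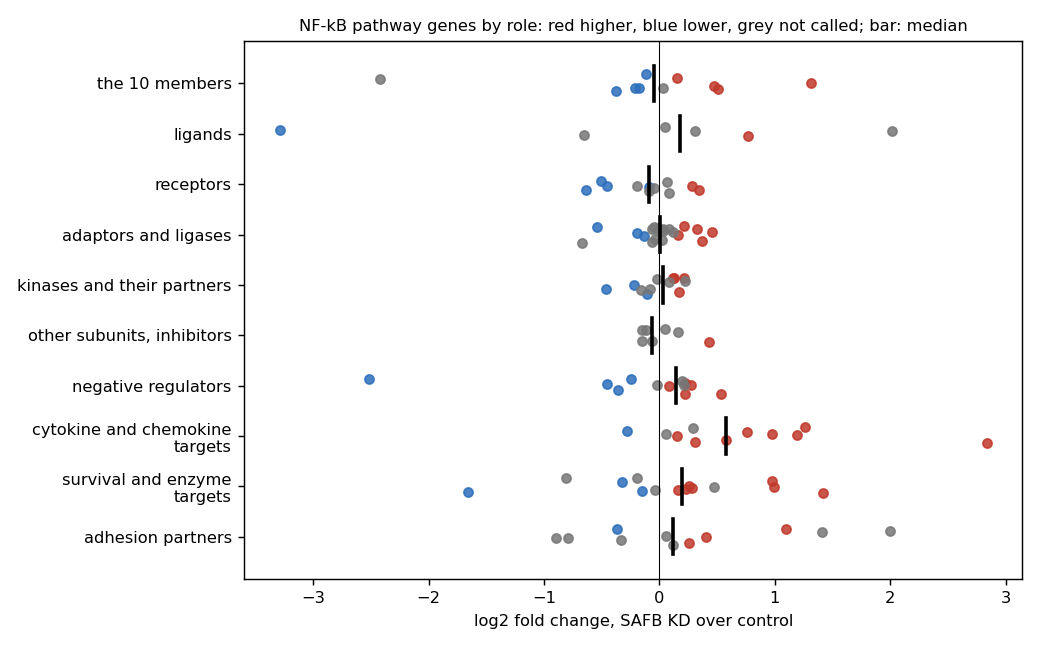
Change in SAFB KD relative to control on the log2 scale (x axis) of the 10 members and of 104 tested pathway genes by role (lines), with called genes in red (higher) or blue (lower), others in grey, and the median of each line as a black bar. Cytokine and chemokine targets have a median of 0.58, while the members (-0.04) and the kinases (0.03) are spread to both sides of 0.

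Kappa-B matches were frequent among promoters of these pathway genes, at 31 of the 92 with a window (33.7%, beside 9.55% of all genes), and at 7 of 8 for cytokine and chemokine targets. Of 27 tested pathway genes with a match 12 were higher, 5 lower and 10 not called. Of 55 without a match 17 were higher, 9 lower and 29 not called. Over all genes tested 21.4% were higher and 20.1% lower, and the counts were not compared by a test. Stretches of 30 bases around the match are shown for Lif (chr11:4257380-4257409), Cxcl1 (chr5:90891164-90891193) and Ier3 (chr17:35821611-35821640), which rose, and for Il1r1 (chr1:40266344-40266373), which fell, all on the plus strand, for comparison with the sites of Tnfaip3 above. Capitals mark the match, and Tank, which rose, also held matches in 2 windows.
Lif: atcaagtacaGGGACGCCCCctccccacac
Cxcl1: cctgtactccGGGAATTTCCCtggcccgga
Ier3: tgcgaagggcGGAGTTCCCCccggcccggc
Il1r1: cagggattttGGAATGCCCCcaaggagatg

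Partners of the adhesion genes were expressed unevenly. Itgb1 rose from 1219 ± 27.0 to 1606 ± 23.9 CPM (log2 fold change 0.40), whereas Itga4, named after its values were seen, had 0 to 4 reads per library. Itgb2 rose at a low level, from 2.31 ± 0.517 to 4.96 ± 0.267 CPM (1.10, SE 0.140, edgeR adjusted p = 1.58e-08). Of 11 tested genes of this list, 3 rose and 1 fell (27.3% and 9.09%, beside 21.4% and 20.1% of all genes tested).

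Some marker genes of other cell types moved with the rise of Vcam1 and Tnfaip3. The summed level of 10 leukocyte markers, 7 of which averaged under 1 CPM, was 24.4 to 25.3 CPM in control and 40.3 to 41.5 in SAFB KD. Cd14 (means of 16.2 and 27.5 CPM) and Cd68 (3.82 and 7.54) were called higher. Csf1r (4.32 and 5.16) was not called (edgeR adjusted p = 0.0616), and Ptprc, Adgre1, Cd3e and Tyrobp had fewer than 10 reads over all libraries. The sum of 8 endothelial markers was 8.16 to 8.48 CPM in control and 9.46 to 10.5 in SAFB KD, with Kdr at 0 in all libraries and Pecam1 (means of 0.862 and 1.46) called higher; epithelial markers summed to 0.83 to 1.03 and 0.858 to 1.39, with 4 of 7 at 0. Of 10 fibroblast markers 7 fell and 1 rose, beside 20.1% lower and 21.4% higher of all genes tested. Their sum, mostly Fn1 and Col1a2, was 19202.5 to 21109 CPM in control and 17927 to 18419.8 in SAFB KD. Single markers fell further, Pdgfra from 366.1 to 142.2 CPM (log2 fold change -1.36) and Pdgfrb from 117.5 to 53.7 (-1.13). The part of these shifts in the values above was not tested. In bulk RNA, fewer cells of a type and less RNA per cell cannot be told apart.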

How the data were processed

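Poly(A)+ RNA of 3 control and 3 SAFB KD libraries was measured; groups and replicate numbers came from the sample titles. The deposited values were raw counts of reads per gene. The authors mapped trimmed reads with STAR 2.7.9a, using GRCm38 (the submitters' processing notes also name mm10 and deepTools 3.5.1), and it is inferred that the single column holds the reverse-stranded gene counts named in the study's methods. Such counts leave out reads shared by near-identical copies.

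Genes were matched without version suffix to GENCODE M21 (GRCm38), and those with at least 10 reads over 6 libraries were tested (19452 of 54532). Counts were scaled by TMM and compared by the quasi-likelihood test of edgeR 4.0.16 (R 4.3.3) with no covariate, 2-sided, with Benjamini-Hochberg adjustment over all genes tested, and by glmTreat against a log2 threshold of 1. Standard errors were derived from the F statistic. The common biological coefficient of variation was 3.49%, which with 33323307 to 53441129 counts per library let a fall of 8.02% be called for Nfkb1. DESeq2 1.42.0 and limma 3.58.1 (voom) were alternatives, as were other filters, size factors, a replicate block and each library left out. The edgeR steps were tested on simulated data. Intervals of summed reads are exact and cover counting error only. Chi-square over degrees of freedom was 3.92 to 19.6 between replicates, above sampling noise; the series text calls them biological, without saying whether they are separate cultures, and p-values measure only their spread. Figures used matplotlib 3.10.9.

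The members and lists were chosen with earlier results of these data known. Named besides the members were the knockdown targets, the 2 genes of each role group with the smallest adjusted p, and the 3 genes most like the member with the smallest adjusted p; others are marked. Promoter windows were searched for the motifs in Python 3.11.15. The level of 1 leukocyte marker is not reported here.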

Additional observations from a re-analysis of the deposited data

How the results depend on the processing

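Of the 10 genes, 8 kept their direction and their side of the threshold in every alternative that gave a value, 12 each. The exceptions were Relb, whose call was lost in 6 of 12, and Icam1, which was called only without control 1 and gave a value in 9. The number of members called higher was 4 in all 12 alternatives, and the number called lower was 3 to 5. The number beyond 2-fold was 1 (Tnfaip3), and 0 with DESeq2 and with limma-voom, where 1 passed at an unadjusted p under 0.05 in each; it ranged from 0 to 1 when a library was left out. Fits that left out a library could not be given for Icam1 without control 2 or control 3, nor with filterByExpr, because it was filtered out, and DESeq2 gave it no adjusted p. Pathway genes called ranged from 33 to 38 higher and from 17 to 22 lower. The median control level per kilobase over the 10 genes was 8.29 by merged exons and 10.2 by longest transcript. Same-numbered libraries of the groups did not deviate together (correlations of 0.053, 0.015 and -0.001 over 12103 genes). Only control 1 correlated best with its own number. The main test used no pairing, but these correlations cannot tell whether same-numbered libraries were set up together. With a replicate block 4 members were higher, 4 lower and 1 beyond 2-fold, and 38 pathway genes were higher and 21 lower. Depth limits Icam1, and 6 of 12 ligand genes had fewer than 10 reads over all libraries.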
